A study of Mus musculus with 2 samples.

Results

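Retinoic acid is a small signal made from vitamin A that patterns the vertebrate hindbrain. The aldehyde dehydrogenases Aldh1a1, Aldh1a2 and Aldh1a3 make it from retinal, and the cytochromes Cyp26a1, Cyp26b1 and Cyp26c1 oxidise it and so clear it. Its receptors Rara, Rarb and Rarg bind DNA together with retinoid X receptors and switch target genes on when the ligand is present, while Crabp1 is a small cytoplasmic protein that binds retinoic acid. These 10 genes were taken by symbol from the 43346 Ensembl genes of the deposited tables, and every one of them was found.

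They were measured in total RNA of hindbrain from B6NCrl mouse embryos, male and female pooled, at embryonic day 13.5, in 2 libraries numbered by the labels as biological replicates 1 and 2. No mutation or treatment is named, both libraries belong to 1 group, and the results below therefore describe levels in this tissue and the differences between its libraries. Both carry the same donor label with different biosample labels, so differences between these libraries may be partly technical. The p-values below compare the libraries against counting error only, and no spread between replicates enters them. Totals were 33080194 and 38756411 estimated counts. Values are in TPM, an abundance scaled by transcript length that lets genes be compared within a library. Each comes with the interval that the authors deposited, whose level is not stated.

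Crabp1 stood far above the other 9 genes, and 1 gene led each enzyme family: Aldh1a2 among the synthesising enzymes and Cyp26b1 among the clearing enzymes. Of the 10 genes, 7 were detected, meaning 1 TPM or more in both libraries: Aldh1a2, Aldh1a3, Cyp26b1, Rara, Rarb, Rarg and Crabp1. Aldh1a1, Cyp26a1 and Cyp26c1 were not. Over all annotated protein coding genes in the tables, 62.2% were detected. The order of mean levels was Crabp1, Cyp26b1, Aldh1a2, Rarb, Rara, Rarg, Aldh1a3, Aldh1a1, Cyp26a1 and Cyp26c1. Deposited intervals of neighbours in this order were apart in both libraries, with 3 exceptions. Rarb and Rara overlapped in both libraries, and Rara and Rarg, as well as Aldh1a1 and Cyp26a1, overlapped in replicate 1 but not in replicate 2.

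**Figure D1:**
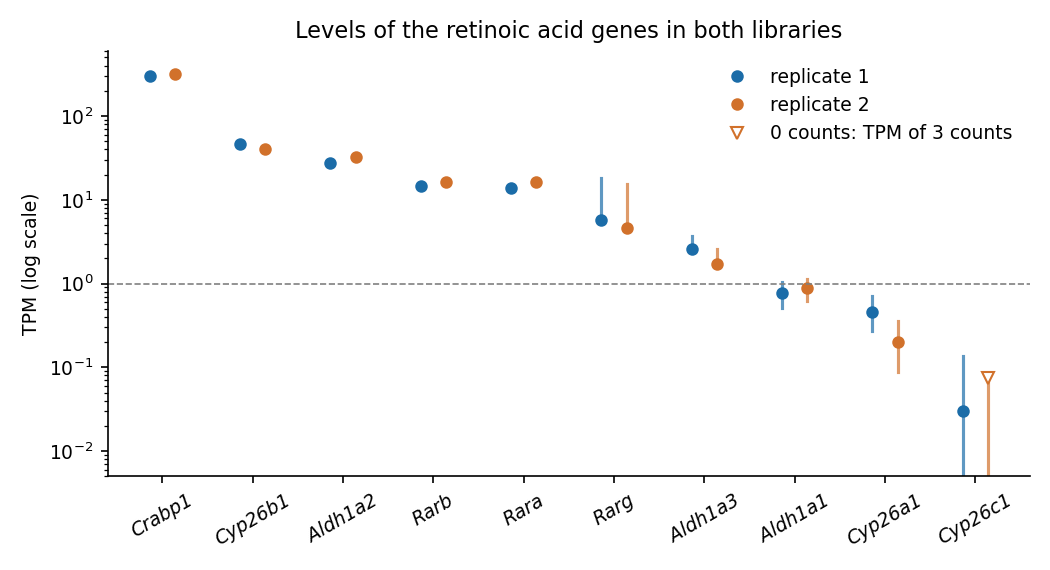
TPM of each gene (log axis) in replicate 1 (blue) and replicate 2 (orange). Vertical lines are the deposited intervals, drawn down to 0.005 TPM, the dashed line marks the detection threshold of 1 TPM, and the open triangle gives, for Cyp26c1 with 0 counts, the TPM that 3 counts would have; levels run from 308 TPM for Crabp1 to 0.33 TPM for Cyp26a1 and below it Cyp26c1.

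Among the synthesising enzymes, Aldh1a2 (also called Raldh2), the main source of retinoic acid in the early embryo and known from the embryonic meninges, had 27.1 TPM in replicate 1 and 32.8 TPM in replicate 2. Its intervals, from 24.9 to 27.9 TPM and from 30.5 to 33.5 TPM, did not overlap, and replicate 2 was the higher. The mean was 29.97 ± 4.02 TPM (SD, n = 2), above 62.1% of the detected protein coding genes. Aldh1a2 lies at chr9:71215789-71296243 on the plus strand (mm10, with positions from GENCODE M21), and its 14 exons belong to the single transcript that the tables hold for it.

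Aldh1a3 (chr7:66390890-66427517, minus strand), the enzyme best known from eye and nose development, was much lower. It had 2.57 TPM in replicate 1 and 1.71 TPM in replicate 2, from 118 and 99 counts. Replicate 1 was the higher, and the intervals, from 2.30 to 3.68 TPM and from 1.56 to 2.61 TPM, overlapped. Aldh1a1 (chr19:20492715-20643465, plus strand), the enzyme of dorsal retina and of dopamine neurons, stayed under the threshold with 0.77 TPM and 0.88 TPM, from 31 and 42 counts, and its intervals overlapped as well.

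Aldh1a2 carried 89.0% of the summed TPM of the 3 Aldh1a genes in replicate 1 and 92.7% in replicate 2. On the scale of log2(TPM + 0.01), Aldh1a2 exceeded Aldh1a1 by 5.12 in replicate 1 and 5.20 in replicate 2, a mean difference of 5.16 ± 0.06 (SD, n = 2). The libraries thus placed these paralogs nearly the same distance apart.

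Among the clearing enzymes, Cyp26b1 (chr6:84571414-84593908, minus strand), which is expressed in hindbrain segments of the embryo, had 45.9 TPM in replicate 1 and 40.1 TPM in replicate 2. The intervals ran from 43.3 to 45.9 TPM and from 38.0 to 40.3 TPM. They did not overlap, and replicate 1 was the higher, the reverse of Aldh1a2. The mean of 43.0 ± 4.09 TPM (SD, n = 2) lay above 71.3% of the detected protein coding genes.

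Cyp26a1 and Cyp26c1 are neighbours on chromosome 19, with 4399 bp between them and both read from the plus strand. Cyp26a1 (chr19:37697798-37701536), an early embryonic enzyme and a textbook direct target of retinoic acid, had 0.46 TPM from 16 counts in replicate 1 and 0.20 TPM from 8 counts in replicate 2. Cyp26c1 (chr19:37685581-37693398), known from early hindbrain segments, had 1 count in replicate 1 and 0 counts in replicate 2. A count of 0 in replicate 2 allows a level of up to 0.0746 TPM, taken at 3 counts and for counting error only. Both neighbours were thus near the limit of what this depth can show.

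Cyp26b1 carried 98.9% and 99.5% of the summed TPM of the Cyp26 genes in replicates 1 and 2. The log2 difference between Cyp26b1 and Cyp26a1 was 6.61 in replicate 1 and 7.58 in replicate 2, with a mean of 7.09 ± 0.68 (SD, n = 2). The size of this difference depended on the scale: it was 5.05 with a pseudocount of 1 and 8.57 with CPM, which is not per length. The summed clearing enzymes had 46.3 TPM and 40.3 TPM, and the summed synthesising enzymes 30.5 TPM and 35.4 TPM. Clearing transcripts were the more abundant in both libraries, by 0.60 in replicate 1 and by 0.19 in replicate 2 on the log2 scale. Synthesis over clearance had a mean log2 ratio of -0.40 ± 0.30 (SD, n = 2), and levels of transcripts are not rates of synthesis or clearance.

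Of the receptors, Rara and Rarb had nearly the same level and Rarg the lowest. Rara (chr11:98927818-98974942, plus strand), the most widely expressed of the receptors, had 13.9 TPM in replicate 1 and 16.5 TPM in replicate 2, with intervals from 12.9 to 15.4 TPM and from 15.4 to 17.9 TPM. These intervals missed each other narrowly, and replicate 2 was the higher. Rarb (chr14:16430839-16819156, minus strand), which marks the posterior hindbrain and is itself switched on by retinoic acid, had 14.7 TPM and 16.5 TPM, with intervals from 13.3 to 15.2 TPM and from 15.2 to 17.0 TPM that overlapped by a small margin. Rarg (chr15:102234938-102257517, minus strand), the receptor best known from skin and cartilage, had 5.68 TPM and 4.65 TPM and was higher in replicate 1.

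Rara held 40.7% and 43.8% of the summed receptor TPM in replicates 1 and 2, Rarb 42.7% and 43.8%, and Rarg 16.6% and 12.3%. The mean log2 ratio of Rara over Rarb was -0.04 ± 0.05 (SD, n = 2), so that no order between them can be given. Rara exceeded Rarg by 1.29 in replicate 1 and by 1.83 in replicate 2, with a mean of 1.56 ± 0.38 (SD, n = 2). With the authors' posterior mean, a second estimate in the same tables, this mean was 0.72.

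The level of Rarg depended on how it was estimated. Its deposited intervals were wide, from 5.48 to 18.2 TPM in replicate 1 and from 4.41 to 15.4 TPM in replicate 2. The authors' posterior mean was 10.2 TPM and 8.48 TPM, or 1.79 and 1.82 times the TPM. A single 111-base transcript, Rarg-206, had 0 counts in both libraries, yet it carried 38.5% and 39.3% of that posterior mean. The other 6 detected genes had posterior means between 0.973 and 1.20 times their TPM.

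The level of Rarb carries a limit of position. Its 3′ end overlaps the 3′ end of Top2b, a DNA topoisomerase gene on the opposite strand. In GENCODE M21, 1793 of the 3108 exonic bases of Rarb-201, or 57.7%, lie within exons of Top2b-201, and the last exon of Top2b alone, 5164 bases long, covers 3 of the 8 exons of Rarb-201. The tables use an older annotation in which Top2b-201 is 5660 bases long rather than 10335, so how much of the overlap it holds is not given in the sources used here. Top2b had 96.7 TPM and 101 TPM. Whether counting used the strand is not given either, and reads of Rarb and Top2b cannot be told apart without it, so the Rarb level is uncertain.

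**Figure D2:**
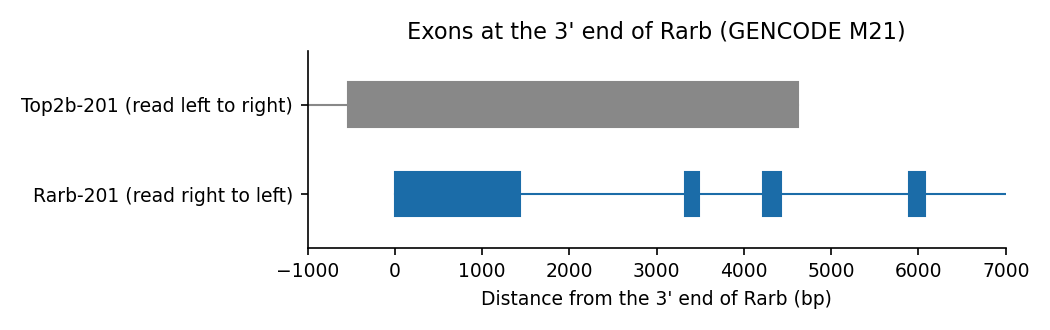
Exons (boxes) and introns (lines) of Rarb-201 and of Top2b-201 from GENCODE M21, against the distance in bp from the 3′ end of Rarb. The last exon of Top2b, 5164 bases long, reaches across 3 exons of Rarb. Levels were estimated with an older form of Top2b-201, 5660 bases long, whose exons are not drawn.

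Crabp1 (chr9:54764748-54773110, plus strand), known from migrating hindbrain neurons and neural crest, was the most abundant gene of the set. It had 300.1 TPM in replicate 1 and 316 TPM in replicate 2, with intervals from 284 to 300.8 TPM and from 300.8 to 317 TPM that met at their ends. The mean of 308 ± 11.4 TPM (SD, n = 2) lay above 96.8% of the detected protein coding genes and was 7.17 times the mean of Cyp26b1, the next gene in the order. Its paralog Crabp2, which carries retinoic acid to the receptors, had 118 TPM and 120 TPM, and the mean log2 ratio of Crabp1 over Crabp2 was 1.37 ± 0.04 (SD, n = 2). The share of cells behind such a level was not measured: in bulk tissue, fewer cells that express a gene and less RNA per cell cannot be told apart.

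Differences between the libraries were tested on estimated counts, with a two-sided exact binomial test given library sizes normalised by TMM and Benjamini-Hochberg adjustment over all 19687 genes tested. The test compares these libraries against counting error, not conditions. Of the 10 genes, 9 had the 10 counts required. At an adjusted p of 0.05, 6 of these 9 passed, against 12.6% of all genes tested and 16.5% of genes with 1000 counts or more. In replicate 2, 4 were higher (Aldh1a2, Rara, Rarb and Crabp1), against 7.07% of all genes, and 2 were lower (Cyp26b1 and Rarg), against 5.49%. Deposited intervals were apart for Aldh1a2, Cyp26b1 and Rara, 3 of the 7 detected genes, against 9.25% of all detected genes. The median log2 ratio of the detected genes in the set was 0.10, and that of all detected genes 0.01.

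The ratio of replicate 2 over replicate 1 was largest for Aldh1a2, at 1.23 with a 95% exact interval from 1.14 to 1.32 (exact binomial test, adjusted p = 1.94e-06). Cyp26b1 had the ratio 0.885, with an interval from 0.849 to 0.923 (exact binomial test, adjusted p = 4.75e-07). Rarg had a lower ratio still, of 0.722 (interval 0.610 to 0.855), on far fewer counts (exact binomial test, adjusted p = 0.00222). Direction and call of Aldh1a2, Cyp26b1 and Rarg held under every scaling tried (TMM, DESeq2 size factors, total counts and spike-in counts).

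For Rara the ratio was 1.18 (interval 1.08 to 1.30, exact binomial test, adjusted p = 0.00506), for Rarb 1.14 (1.05 to 1.25, adjusted p = 0.0267 in the same exact test) and for Crabp1 1.07 (1.03 to 1.11, adjusted p = 0.0132 in the same exact test). These 3 calls rest on the scaling. Spike-in RNAs, added in known amounts, gave a different scale, which shifted all genes by 0.14 on the log2 scale. On that scale 40.4% of all genes tested were called and 93.0% of the calls were lower in replicate 2, whereas with TMM 43.7% of the calls were. Total counts as library sizes gave 49.9%. On the spike-in scale the Rara ratio was 1.07 (exact binomial test, adjusted p = 0.255), the Rarb ratio 1.04 (exact binomial test, adjusted p = 0.585), and the Crabp1 ratio turned to 0.969 (exact binomial test, adjusted p = 0.213).

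Aldh1a3, with a ratio of 0.720 (interval 0.546 to 0.949), did not pass with TMM (exact binomial test, adjusted p = 0.102), but passed on the spike-in scale with 0.653 (exact binomial test, adjusted p = 0.00691). Aldh1a1 had a ratio of 1.16 with an interval from 0.714 to 1.91, and Cyp26a1 a ratio of 0.429 with an interval from 0.159 to 1.06. Their adjusted p-values in the exact binomial test were 0.793 and 0.239. Intervals as wide as these leave differences of the size seen for Aldh1a2 undetectable at this depth.

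**Figure D3:**
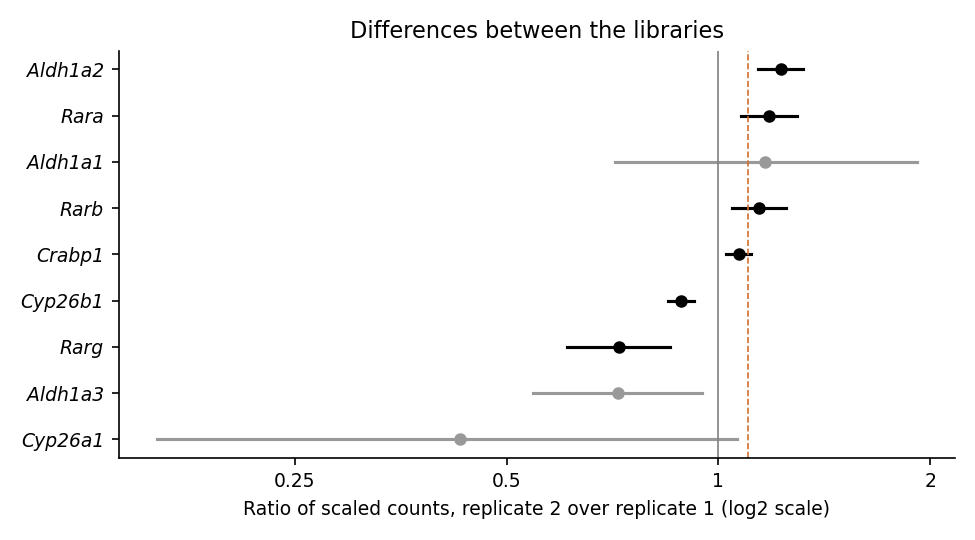
Ratio of scaled counts, replicate 2 over replicate 1 (log2 axis), with 95% exact intervals, for the 9 genes tested; black genes passed at an adjusted p of 0.05 and grey genes did not. The grey line is a ratio of 1 under TMM, and the orange dashed line is where a ratio of 1 on the spike-in scale would lie, inside the intervals of Rara, Rarb and Crabp1.

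Levels of tissue markers differed between the libraries too. Over all genes tested, 7.07% were called higher and 5.49% lower in replicate 2 with TMM. On the spike-in scale 40.4% were called, and 93.0% of those calls were lower. Of 10 choroid plexus markers, 8 were higher in replicate 2, led by Ttr, a carrier protein for thyroid hormone and retinol, with 533 TPM and 1022 TPM, and Enpp2 with 49.8 TPM and 61.1 TPM. Their summed level was 672 TPM in replicate 1 and 1244 TPM in replicate 2. Of 12 markers of meninges and mesenchyme, 6 were lower in replicate 2 and none higher with TMM. They were led by the collagens Col3a1 with 277 TPM and 229 TPM and Col1a1 with 176 TPM and 104 TPM. The sum of all 12 was 782 TPM and 613 TPM. The other 6 did not pass, among them Dcn with 71.2 TPM and 69.3 TPM and Slc6a13 with 29.0 TPM and 29.8 TPM. Dcn, which was lower on the spike-in scale, and Slc6a13 are named after their values were seen. All calls made with TMM in both lists were also made on the spike-in scale. Aldh1a2, Rara, Rarb and Crabp1 were thus higher, with TMM, in the library with the higher sum of choroid plexus markers. As given next, the sums of hindbrain, endothelium, surface epithelium and muscle markers were also higher in replicate 2. Aldh1a2, introduced above as known from the meninges, was thus higher in the library with the lower sum of meninges and mesenchyme. The Crabp1 ratio turned under 1 on the spike-in scale. Cyp26b1 and Rarg were higher in the library with the higher sum of meninges and mesenchyme. The sums of forebrain markers (24.9 TPM and 23.0 TPM) and, as given next, of motor neuron markers were also higher in replicate 1. The part of these tissues in the differences was not tested.

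Hindbrain markers were present, with 12 of 13 detected, among them Meis1 (173 TPM in both libraries) and Gbx2 (45.0 TPM and 44.8 TPM); En2 was under the threshold, with 0.58 TPM and 0.48 TPM. Their sum was 360 TPM and 389 TPM. With TMM 7 of the 13 were higher in replicate 2 and none lower, and on the spike-in scale 3 were higher and 3 lower. Atoh1, a factor of the rhombic lip, with 6.35 TPM and 16.4 TPM, and Ptf1a, with 1.03 TPM and 2.50 TPM, were higher on both scales and are named after their values were seen. Of 10 forebrain markers 2 were detected, Lhx2 with 19.2 TPM and 18.0 TPM, and Dlx5 with 1.56 TPM and 1.04 TPM. No marker in any list was at 0 in both libraries, and Nkx2-1 was at 0 in replicate 1. Endothelium (8 of 8 detected, led by Cldn5 and Esam), motor neurons (7 of 8, led by Isl1), surface epithelium (4 of 6, led by Krt18 and Krt8) and muscle (3 of 6, led by Actc1 and Acta1) were represented in both libraries. Summed levels in replicates 1 and 2 were 179 TPM and 185 TPM for endothelium, 92.6 TPM and 90.5 TPM for motor neurons, 14.6 TPM and 22.1 TPM for surface epithelium, and 47.1 TPM and 55.6 TPM for muscle. With TMM 2 of 6 markers of surface epithelium, 3 of 6 of muscle and 1 each of the forebrain, endothelium and motor neuron lists were higher in replicate 2, and none of these lists had a lower one. On the spike-in scale muscle had 1 higher and none lower, and surface epithelium 2 higher, Krt18 and Krt8, and 2 lower. The lower ones were Cdh1 with 1.88 TPM and 1.40 TPM and Krt5 with 0.32 TPM and 0.10 TPM, named after their values were seen.

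Transcript tables divided 4 of the detected genes between several transcripts. Aldh1a2, Rarb and Crabp1 had 1 transcript each in the tables, although GENCODE M21 lists 7 for Rarb, so other Rarb forms were not measured. For Cyp26b1, transcript Cyp26b1-202 had 28.1 TPM in replicate 1 and 29.4 TPM in replicate 2, and its intervals overlapped. Cyp26b1-201 had 17.8 TPM and 10.6 TPM, with intervals from 14.1 to 20.9 TPM and from 7.42 to 13.6 TPM that did not overlap. In this estimated split, the lower gene level of Cyp26b1 in replicate 2 fell on Cyp26b1-201, whose share was 38.8% in replicate 1 and 26.5% in replicate 2. Estimated counts in replicates 1 and 2 were 1709 and 1207 for Cyp26b1-201, and 2667 and 3304 for Cyp26b1-202. Whether 1 transcript changed or shared reads were divided differently was not tested.

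In GENCODE M21 both transcripts of Cyp26b1 have 1536 coding bases and a noncoding first exon of their own, which lies at chr6:84593789-84593908 for Cyp26b1-202 and at chr6:84593640-84593746 for Cyp26b1-201. In the tables, which use the older annotation, Cyp26b1-201 is 4751 bases long and Cyp26b1-202 4700, whereas GENCODE M21 gives 4157 and 4170. These exons therefore do not account for the whole difference between the transcripts as quantified.

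Rara transcripts begin their coding sequence in either of 2 exons. The exon at chr11:98950618-98950795 starts the α1 form of the receptor and the exon at chr11:98960965-98961133 the α2 form, which differ at the N terminus. The α1 group had 5.99 TPM in replicate 1 and 8.03 TPM in replicate 2, or 43.0% and 48.7% of the gene. The α2 transcript Rara-202 had 7.95 TPM and 8.47 TPM, or 57.1% and 51.3%, with overlapping intervals. Neither start dominated. Rara-202 also ends further downstream than Rara-203 and Rara-204, the leading α1 transcripts, and reads from this end count toward its level.

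For Rarg the downstream start led. Rarg-202, which starts the γ2 form at chr15:102246060-102246210, had 3.32 TPM and 3.15 TPM, or 58.4% and 67.8% of the gene. Rarg-201, which starts the γ1 form at chr15:102252419-102252602, had 2.10 TPM in replicate 1 and 0.74 TPM in replicate 2. Its intervals, from 0.981 to 2.74 TPM and from 0.0897 to 1.03 TPM, overlapped slightly. Rarg-205, a 934-base transcript with the same first coding exon, is not included in these values. It had 0.26 TPM in replicate 1, or 4.59% of the gene, and 0 TPM in replicate 2. Rarg-204, a 423-base transcript, had 0 TPM in replicate 1 and 0.76 TPM from 6 counts in replicate 2, or 16.3% of the gene there, about as much as Rarg-201. In the posterior mean the share of Rarg-202 was 32.9% and 37.8%, which goes with the share given to Rarg-206 above.

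Aldh1a3 was divided between a short and a full-length transcript. Aldh1a3-203, with 7 exons and 528 coding bases, had 57.5% of the gene's TPM in replicate 1 and 49.8% in replicate 2, and Aldh1a3-201, with 13 exons and 1536 coding bases, had 42.5% and 50.2%. By counts, which favour the longer transcript, Aldh1a3-203 held 33.0% of the 2 libraries' reads. On 118 and 99 counts the order of these transcripts could not be told.

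**Figure D4:**
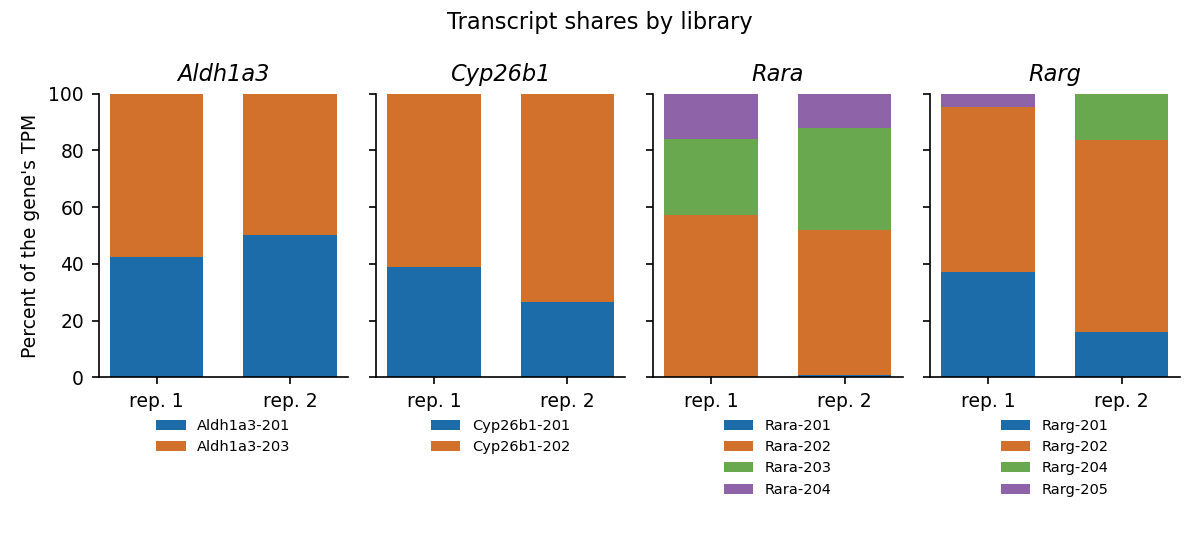
Percent of each gene's TPM carried by its transcripts in replicate 1 and replicate 2, for the 4 detected genes with several transcripts; transcripts at 0 in both libraries are left out. The share of Cyp26b1-201 is 38.8% in replicate 1 and 26.5% in replicate 2, and that of Rarg-201 is 37.0% and 15.9%.

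Retinoic acid receptors bind direct repeats of a 6-base half-site, and the best known element has a spacer of 5 bases between the repeats. The promoter windows of RefSeq (GRCm38.p6, 250 bases before to 50 bases after a gene's start) were searched on both strands for direct repeats of the half-site AGGTCA and its variants AGTTCA, then GGTTCA, and lastly GGGTCA, in any combination, with spacers of 1, 2 or 5 bases. A window was given for 9 of the 10 genes, Aldh1a3 excepted. With a spacer of 5 bases the repeat was present in 31 of 27025 genes (0.115%), and Rarb and Cyp26a1 were among them. With spacers of 1 and 2 bases it was present in 0.263% and 0.311% of genes and in none of the 9. Both matches consist only of variant half-sites from the search list, and both genes are textbook targets. Finding them is therefore not independent of how the list was chosen, and the share of all genes is no test of it. The matches are shown because both genes are textbook targets of the pathway while their levels here differed widely; capitals mark the half-sites as they read on the gene's strand, 5′ to 3′, and on the Cyp26a1 line they are the reverse complement of the repeat.
Rarb: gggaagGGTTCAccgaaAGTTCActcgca
Cyp26a1: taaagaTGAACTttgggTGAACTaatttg

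The Rarb sequence is chr14:16575507-16575535 on the minus strand, and its repeat lies 53 to 37 bases before the RefSeq start, in the noncoding part of the first exon that GENCODE M21 gives to Rarb-201. The Cyp26a1 sequence is chr19:37697770-37697798 on the plus strand, with the repeat on the opposite strand, 32 to 16 bases before the start. Read on the strand of the repeat and counted from 1 at its 5′ end, the elements differed at 2 of 17 positions, G1A and G9C, with the base of Rarb first. Rarb had a mean of 15.6 ± 1.32 TPM and Cyp26a1 of 0.33 ± 0.18 TPM (SD, n = 2). By these estimates, genes with nearly the same element stood at very different levels in this tissue. The Rarb level is uncertain because of the overlap with Top2b given above, and its SD does not cover that. A match is a description of letters in the window, and occupancy was not measured.

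Around these 10 genes, 72 other genes of the pathway were followed in 6 lists, and 54 of them were detected. Of the 63 tested, 14 were higher and 4 lower in replicate 2 and 45 did not pass; on the spike-in scale 5 were higher and 22 lower. Of all genes tested, 12.6% were called with TMM and 40.4% on the spike-in scale. On the latter scale 93.0% of the calls over all genes were lower in replicate 2. Beside these shares, the 18 calls with TMM and those on the spike-in scale are given as counts only.

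Upstream of the dehydrogenases, 5 of 10 genes of retinol uptake, storage and binding were detected. Behind Ttr came Dgat1, an acyltransferase, with 59.5 TPM and 53.8 TPM. Rbp4, the retinol carrier of blood, was the lowest detected, with 4.09 TPM in replicate 1 and 2.22 TPM in replicate 2, and passed as lower. Ttr, the binding partner of Rbp4 in blood, was the only gene of this list that passed as higher, so these partners moved in opposite directions, also on the spike-in scale.

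Of 16 enzymes acting between retinol and retinal, 8 were detected. Adh5, a broadly expressed dehydrogenase, was highest, with 176 TPM and 175 TPM. Rdh10, the enzyme that oxidises retinol to retinal in the embryo, was the lowest of the detected, with 9.99 TPM and 9.63 TPM, while Dhrs3, which works in the reverse direction, had 28.2 TPM and 33.8 TPM and Rdh14 31.1 TPM and 30.1 TPM. Dhrs3 and Dhrs4 (16.4 TPM and 19.5 TPM) were higher in replicate 2 with intervals apart, and neither passed on the spike-in scale. Rdh12, under the threshold with 0.88 TPM and 0.32 TPM and named after its values were seen, passed as lower on both scales.

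All 3 genes listed beside Crabp1 as carriers were abundant. Fabp7, a fatty acid binding protein of radial glia, had 1787 TPM and 2042 TPM and was higher in replicate 2 on both scales. Whether Fabp7 carries retinoic acid was not measured. Fabp5, which can carry retinoic acid to other nuclear receptors, had 697 TPM and 690.2 TPM, and neither Fabp5 nor Crabp2 passed with TMM. Crabp1 was thus above Crabp2 and below Fabp5 and Fabp7 in both libraries.

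The next list holds the retinoid X receptors and other nuclear receptors, not all of them partners of the retinoic acid receptors, and all 6 were detected. Rxrb, the highest, had 47.1 TPM and 45.6 TPM, more than Rara, Rarb and Rarg together in both libraries (34.3 TPM and 37.7 TPM). Rxrg, with 7.15 TPM and 8.25 TPM, and Rxra, with 3.77 TPM and 3.82 TPM, are named as partners of the receptors and fall outside the naming rule. The orphan receptors Rora (14.5 TPM and 20.1 TPM) and Rorb (8.17 TPM and 9.77 TPM) were higher in replicate 2 on both scales, and Ppard was lowest with 1.17 TPM and 1.35 TPM.

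All 12 coregulators, the proteins through which the receptors silence or activate genes, were detected. The corepressor parts Ncor1 (132 TPM and 137 TPM) and Hdac3 (122 TPM and 116 TPM) led, followed by Med1 of the Mediator complex (54.7 TPM and 54.2 TPM), and the coactivator Ncoa1 was lowest (6.30 TPM and 6.24 TPM). With TMM 1 was higher, Ncor1, and 1 lower, Ep300. On the spike-in scale none was higher and 9 were lower, Ncor1, Ep300, Hdac3 and Med1 among them. That scale called 40.4% of all genes tested, and 93.0% of those calls were lower, so these counts are not read as a result about coregulators.

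Of 25 known targets of retinoic acid 20 were detected. With TMM 7 were higher and 1 lower in replicate 2, against 7.07% and 5.49% of all genes tested. The spike-in scale, which called 40.4% of all genes tested, gave 1 higher and 3 lower. The homeobox genes Meis1 (173 TPM in both), Hoxb5 (160.0 TPM and 175 TPM) and Meis2 (143 TPM and 113 TPM) were the most abundant and Rarres1 the lowest detected (1.03 TPM and 1.07 TPM). Hoxb6, with 66.9 TPM and 107 TPM, was higher and Meis2 lower on both scales, while Hoxb5 and Hoxb2 (31.4 TPM and 38.3 TPM) passed as higher with TMM but not on the spike-in scale. Stra8, a gene of germ cells, and Cdx1, a caudal homeobox gene, were listed at 0 in both libraries.

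**Figure D5:**
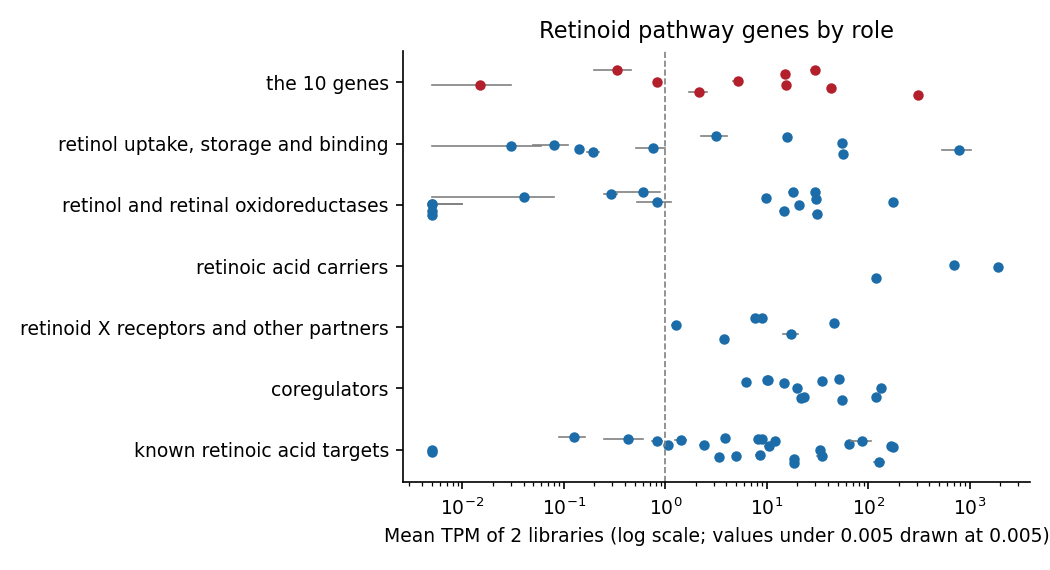
Mean TPM over the 2 libraries (log axis; values under 0.005 are drawn at 0.005) of the 10 genes (red) and of 72 other pathway genes in 6 lists (blue), with grey lines from the value of one library to that of the other. The dashed line is the detection threshold. Every gene drawn in the rows of carriers, of retinoid X receptors and other partners, and of coregulators lies above it. The row of partners also holds the orphan receptors Rora and Rorb. Fabp7, a fatty acid binding protein drawn with the carriers, lies highest.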

How the data were processed

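Total RNA-seq of 2 hindbrain libraries was taken from gene and transcript tables. Estimated counts, as deposited by the authors, are not whole numbers and were rounded for tests. TPM and FPKM were deposited by the authors with the bounds of an interval each, and the percent of a gene's TPM per transcript was deposited as well. Assembly mm10 with GENCODE M4 was used, per the notes deposited with the files; no aligner, counting program or strand setting is named by a label or header. Symbols, positions and exons came from GENCODE M21 (GRCm38).

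Library sizes were normalised by TMM (edgeR 4.0.16, R 4.3.3). A quasi-likelihood test needs 2 groups, and the libraries form 1, so a two-sided exact binomial test (SciPy 1.17.1) was run on genes with 10 counts or more, with Benjamini-Hochberg adjustment at 0.05. The code was tested on simulated data. Log ratios used a pseudocount of 0.01 TPM. Intervals and limits at 3 counts cover counting error only, and reads are not independent molecules. Alternatives were DESeq2 1.42.0 size factors, total and spike-in counts, other thresholds, pseudocounts and units, and single libraries.

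Named were the 10 genes; of each other pathway list the 3 highest and the lowest detected gene and those called with intervals apart; and of each marker list the 2 highest and any at 0; 2 of the genes this rule gives are not reported here. Members and lists were chosen with earlier results of these data known.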

Additional observations from a re-analysis of the deposited data

How the results depend on the processing

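The count of genes with intervals apart rose from 3 to 5 with the FPKM intervals, and to 5 when replicate 2 was rescaled by the median ratio of detected genes; Crabp1 and Rarb joined in both. The Crabp1 ratio reversed to 0.969 with spike-in counts. The log2 ratio of Rara over Rarb reversed to 0.0138 with the posterior mean. With CPM, which is not per length, the log2 ratio of Crabp1 over Crabp2 was 1.13 and that of summed Aldh1a over summed Cyp26 -1.48. Spike-in counts called 4 of the 10 genes (1 higher, 3 lower) and 7946 of 19687 genes, against 2472 with TMM. With DESeq2 size factors, total counts and both other filters the same 6 genes were called. For the other pathway genes these scalings were chosen after seeing the data: DESeq2 gave 14 higher and 4 lower, and total counts 13 and 4.

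No paired analysis was possible because the libraries form 1 group. With 2 libraries the spread is poorly known, and genes under 1 TPM rest on few counts.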
